A study of Mus musculus with 34 samples.

Results

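The 10 genes described here make or organise the matrix of tendon and of cartilage-like tissue: Scx, Mkx, Tnmd, Kera, Fmod, Chad, Cilp, Cilp2, Comp and Thbs4. They were taken by gene symbol from the deposited table, which holds 10 of 10 among its 23011 genes, and all 10 had enough reads to be tested in every comparison. The table covers RNA sequencing of hindlimb muscle from female mice, and the labels give no strain. The soleus is a slow postural muscle and the plantaris is its fast neighbour, and both attach to bone through tendons. Mice were 24 months (aged) or 6 months (young) old and were either sedentary or trained for 8 weeks by PoWeR, voluntary running on a wheel loaded with added weight. All were fasted overnight before collection, and the wheels of trained mice had been locked for 24 hours.

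The 34 libraries form 8 groups: 5 aged sedentary soleus, 4 aged PoWeR soleus, 5 aged sedentary plantaris, 4 aged PoWeR plantaris, and 4 each of young sedentary soleus, young PoWeR soleus, sedentary libraries labelled young plantaris and PoWeR libraries labelled young plantaris. Total counts per library ran from 15237626 to 26250461. For the aged plantaris groups the sample titles name soleus and the source field names plantaris; the groups follow the source field. The extraction text of every sample names plantaris only, also for soleus. As a check, Myh4, the fastest heavy chain, was at 53302 ± 11441 CPM (SD, n = 5) in aged sedentary plantaris and at 352 ± 696 CPM (n = 5) in aged sedentary soleus. In the 8 libraries labelled young plantaris Myh4 was at 14.4 to 41.3 CPM, inside or near the range of young soleus (14.1 to 28.7 CPM), so the label plantaris goes against their myosins. CPM are counts scaled to a common library size by factors that correct for library composition. The labels name no dissection or sequencing date, so age and any batch cannot be told apart. One aged plantaris library, sedentary replicate 16, stood apart in these genes, and the main edgeR tests of that group are also given without it. It stays in the pooled ranges, in the correlations unless stated, and in the fit with a replicate block. In whole-muscle RNA, fewer cells of a type and less RNA per cell cannot be told apart.

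Tendon cells, or tenocytes, surround collagen fibrils, and in whole muscle they lie where fibres join the tendon and in the connective tissue sheaths. Scleraxis (Scx) and mohawk (Mkx) are transcription factors of the tendon lineage, and tenomodulin (Tnmd) is a membrane glycoprotein used as a marker of mature tenocytes. Keratocan (Kera), fibromodulin (Fmod) and chondroadherin (Chad) are small leucine-rich proteins, of which fibromodulin binds collagen and sets fibril diameter. Cilp and Cilp2 are cartilage intermediate layer proteins. Comp and Thbs4 are thrombospondins, secreted multimers that bind collagen in cartilage, tendon and the muscle-tendon junction.

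The genes lie on 9 chromosomes of mm10, and the positions in the deposited table match the GENCODE annotation of that build. Comp and Cilp2 lie on chromosome 8, and the other members lie on a chromosome each. Scx (chr15:76457452-76459458, + strand) lies wholly inside Bop1, a ribosome assembly gene on the other strand, and shares no exon base with it. Chad (chr11:94565047-94569127, + strand) lies likewise inside Acsf2, an acyl-CoA synthetase gene, with 0 shared exon bases. Whether counting used strand is not given in the sources used here, so reads from the introns of Bop1 and Acsf2 cannot be told apart from reads of Scx and Chad. Mkx shares 201 of its 4095 exon bases with AC148004.2, a gene on the same strand that was not tested, and reads of those bases cannot be told apart. Fmod lies at chr1:134037254-134048277, Thbs4 at chr13:92751590-92794818, Kera at chr10:97606879-97613692 and Tnmd at chrX:133850980-133865577. Cilp lies at chr9:65265180-65280605, Cilp2 at chr8:69880369-69887687 and Comp at chr8:70373558-70382066.

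Promoter windows are shown for 3 members that were lower with age and for Cilp, which was not, because the contrast between them runs through the results. Each holds the 250 bases before the start in RefSeq (GRCm38.p6), on the gene's own strand. Windows of 7 of 10 members were used, and the counts below cover those 7 only. Capitals mark the letters CANNTG, called an E-box, the kind of sequence that Scx and other basic helix-loop-helix factors bind; CANNTG reads the same on both strands.
Fmod, chr1:134037004-134037253, + strand: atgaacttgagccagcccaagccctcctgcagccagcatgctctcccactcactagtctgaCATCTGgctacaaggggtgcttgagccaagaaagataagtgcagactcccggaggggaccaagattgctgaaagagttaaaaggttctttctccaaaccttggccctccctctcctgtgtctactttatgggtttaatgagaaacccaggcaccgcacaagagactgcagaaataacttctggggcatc
Chad, chr11:94564797-94565046, + strand: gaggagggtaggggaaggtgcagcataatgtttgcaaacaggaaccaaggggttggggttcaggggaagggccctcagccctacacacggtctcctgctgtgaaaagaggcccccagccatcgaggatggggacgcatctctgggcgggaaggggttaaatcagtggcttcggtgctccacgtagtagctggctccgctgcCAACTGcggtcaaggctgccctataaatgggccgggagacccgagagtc
Thbs4, chr13:92794819-92795068, - strand: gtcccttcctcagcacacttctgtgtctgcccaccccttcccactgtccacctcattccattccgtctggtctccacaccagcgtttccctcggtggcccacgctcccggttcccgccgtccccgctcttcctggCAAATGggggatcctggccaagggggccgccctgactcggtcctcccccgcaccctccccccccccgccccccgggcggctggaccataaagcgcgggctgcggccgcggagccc
Cilp, chr9:65264930-65265179, + strand: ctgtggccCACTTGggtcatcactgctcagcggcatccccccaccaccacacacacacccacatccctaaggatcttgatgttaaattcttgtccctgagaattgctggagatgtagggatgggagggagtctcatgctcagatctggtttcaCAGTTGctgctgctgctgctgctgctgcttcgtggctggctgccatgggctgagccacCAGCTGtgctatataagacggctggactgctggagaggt
The windows of Fmod, Chad and Thbs4 hold 1 E-box each and that of Cilp holds 3. Of the windows not printed, also of members lower with age, those of Kera and Tnmd hold 0 and that of Cilp2 holds 1. These letters occur in 5 of the 7 member windows and in 66.2% of 32851 RefSeq promoter windows of that length, so a match describes the window and marks no site. The motif TATAAA, searched on both strands, is in 1 of the 7 windows, that of Chad, and in 12.4% of all windows.

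**Figure D1:**
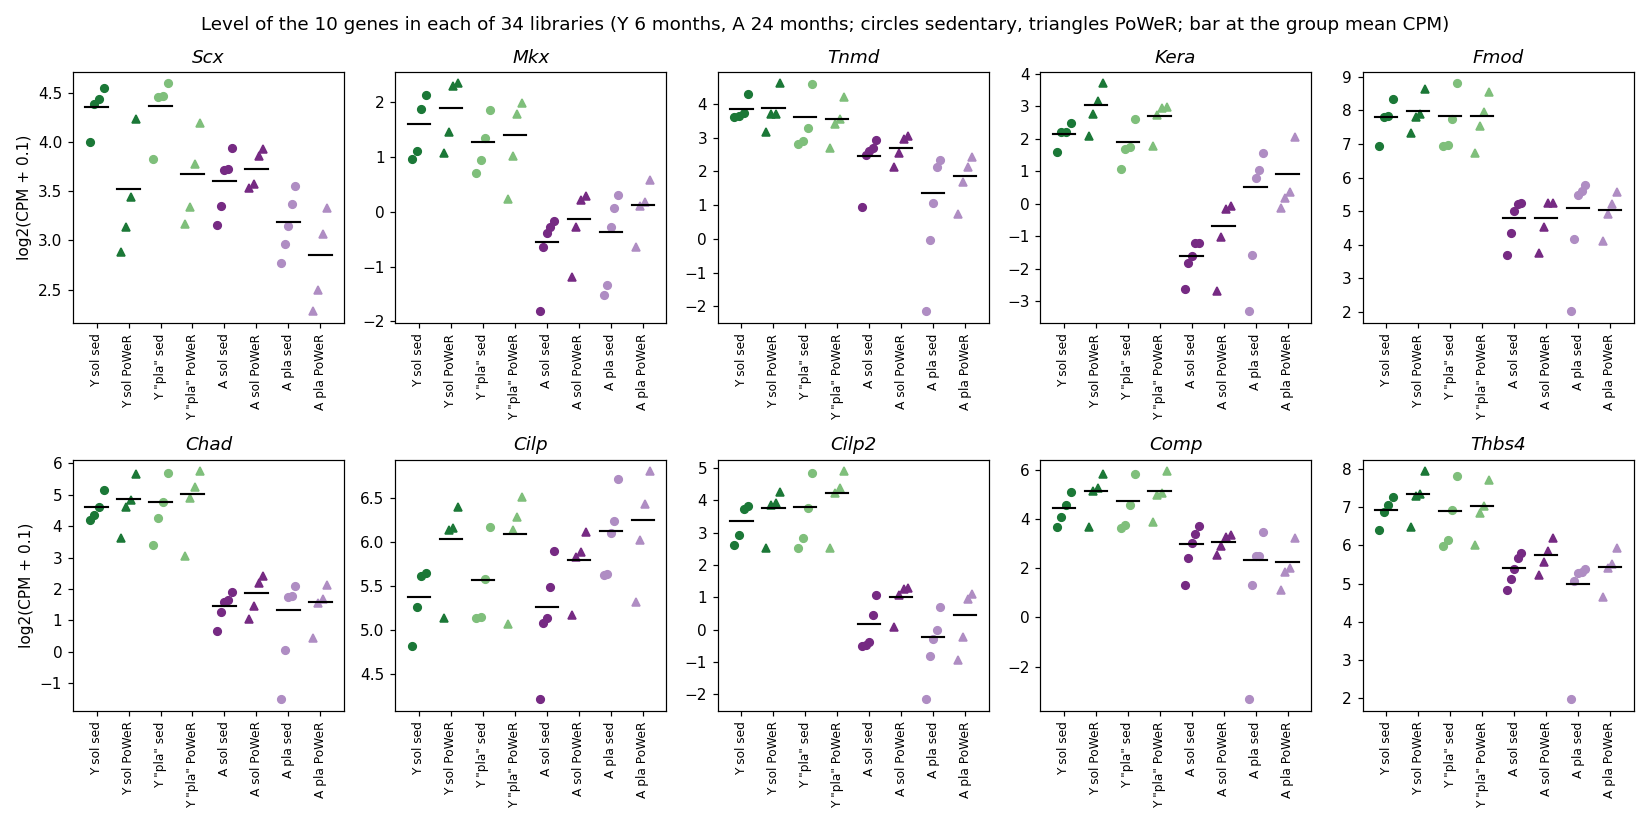
Level of each gene in every library, as log2(CPM + 0.1), by group; Y is 6 months and A is 24 months, "pla" in quotation marks stands for the libraries labelled young plantaris, circles are sedentary and triangles PoWeR libraries, and bars mark the log2 of the group mean. Fmod, Chad and Cilp2 of all 18 aged libraries sit below those of all 16 young libraries, whereas the Cilp values of the ages overlap.

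Levels were compared between genes per kb of exon. In young sedentary soleus Fmod had the highest level, 67.8 ± 24.6 CPM per kb (SD, n = 4), followed by Thbs4 at 37.1 ± 8.91 and Chad at 14.7 ± 4.67 CPM per kb. Tnmd (10.6 ± 2.62), Scx (10.2 ± 1.58), Cilp (9.74 ± 2.43) and Comp (7.39 ± 3.21 CPM per kb) followed within their spread of each other. Cilp2 (2.35 ± 0.919), Kera (1.91 ± 0.472) and Mkx (0.718 ± 0.287 CPM per kb) were lowest. In aged sedentary soleus the order was Thbs4 (12.8 ± 3.38 CPM per kb, n = 5), Cilp (9.03 ± 3.56), Fmod (8.45 ± 3.33) and Scx (6.01 ± 1.29), and the first 3 lay within their spread of each other. In each young group Fmod held rank 1 and Chad rank 3 among the 10, and in aged sedentary soleus they held ranks 3 and 7. Mkx stood last in 7 of the 8 groups and Kera in the other.

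Soleus of aged sedentary mice was compared with soleus of young sedentary mice for the difference made by age without training. Of the 10 genes, 9 fell, by between 0.71 and 4.16 on the log2 scale, and Cilp missed the threshold. With edgeR, 16.7% of the 14934 genes tested were called lower in aged muscle at an adjusted p under 0.05. The median log2 fold change of the 10 was -1.88, beside 0.03 over all genes.

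Among the leucine-rich proteins, Fmod was at 37.3, 12.8, 37.5, 32.0 and 20.2 CPM in aged replicates 12 to 16 and at 228, 123, 321 and 225 CPM in young replicates 1 to 4. The groups lay far apart, with the highest aged library under the lowest young one. The log2 fold change of Fmod was -2.96 ± 0.40 (SE; adjusted p = 6.14e-05), which is 7.76-fold lower. Chad, which binds cells and collagen, was at 3.65, 1.47, 3.05, 2.88 and 2.32 CPM in aged and at 24.5, 18.1, 35.7 and 20.2 CPM in young libraries. Again no aged library reached a young one, and Chad changed by -3.15 ± 0.39 (adjusted p = 1.44e-05). Acsf2, the gene around Chad, had a log2 fold change of 0.12 ± 0.18 (adjusted p = 0.621). Kera was at 0.332, 0.0611, 0.333, 0.180 and 0.226 CPM in aged and at 4.53, 2.89, 5.49 and 4.52 CPM in young libraries. It had the lowest fold change of the 10, -4.16 ± 0.48 (adjusted p = 1.99e-06), from only a few reads per aged library.

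Cilp2 and Cilp differed from each other in this comparison. Cilp2 was at 0.664, 0.611, 1.28, 1.98 and 0.622 CPM in aged and at 13, 6.05, 14 and 7.48 CPM in young libraries, without overlap, a change of -3.25 ± 0.41 (adjusted p = 9.92e-06). Cilp was at 44.8, 18.5, 59.6, 33.9 and 35.2 CPM in aged and at 50.1, 28.2, 49.1 and 38.3 CPM in young libraries. Both the highest and the lowest of these 9 Cilp values were aged libraries, and the log2 fold change was -0.06 ± 0.31 (adjusted p = 0.895, 95% interval -0.67 to 0.54). The interval of Cilp lies above the whole interval of Cilp2 (-4.05 to -2.45).

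The thrombospondin Thbs4 was at 51.0, 28.5, 55.3, 41.5 and 34.7 CPM in aged and at 132, 84.0, 154 and 118 CPM in young libraries. Its groups did not overlap, and it changed by -1.48 ± 0.28 (adjusted p = 0.00067). Comp was at 10.5, 2.38, 12.9, 8.10 and 5.20 CPM in aged and at 23.7, 12.8, 34.5 and 16.7 CPM in young libraries. Here aged replicate 14 lay just above young replicate 2, and the change was -1.44 ± 0.45 (adjusted p = 0.0224). Comp missed the threshold without aged replicate 16 (adjusted p = 0.0503) and without young replicate 3 (adjusted p = 0.0727).

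For the tendon-lineage genes, Tnmd was at 7.47, 1.83, 5.94, 6.36 and 5.54 CPM in aged and at 12.1, 12.4, 19.6 and 13.2 CPM in young libraries, a change of -1.35 ± 0.33 (adjusted p = 0.00383) without overlap. Mkx was at 0.664, 0.183, 0.722, 0.540 and 0.791 CPM in aged and at 2.05, 4.28, 3.58 and 1.86 CPM in young libraries, a change of -2.27 ± 0.41 (adjusted p = 0.000242), also without overlap. Scx changed least of the 9, from 20.8, 21.6, 23.4 and 15.9 CPM in young to 10.1, 15.2, 13.2, 13.1 and 8.82 CPM in aged libraries. The highest aged Scx value lay just under the lowest young one, and the change was -0.71 ± 0.22 (adjusted p = 0.015). Bop1, the gene around Scx, had a log2 fold change of 0.09 ± 0.11 (adjusted p = 0.564). In total 8 of the 10 genes had every aged library below every young one, which held for 16.9% of all genes tested.

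**Figure D2:**
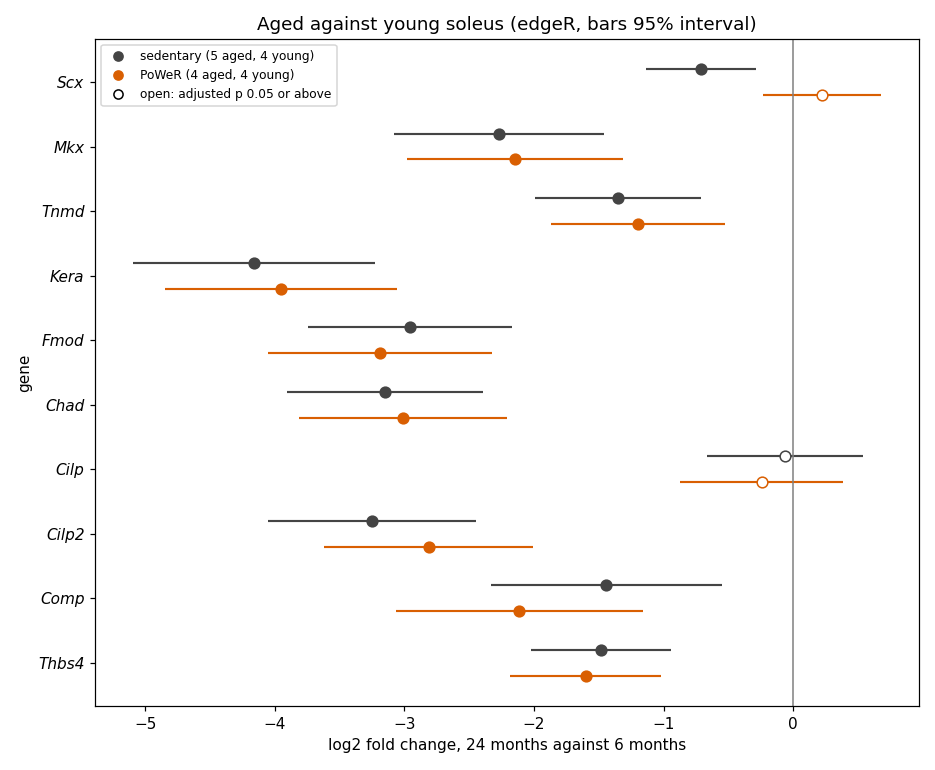
Log2 fold change of each gene in aged against young soleus, for sedentary mice (grey) and PoWeR mice (orange), with 95% intervals; open points did not pass an adjusted p of 0.05. The intervals of Cilp span 0 at both training states, and the interval of Scx is -1.14 to -0.29 in sedentary and -0.23 to 0.68 in PoWeR mice.

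After PoWeR, aged and young soleus were compared in the same way, with the trained mice of each age. Here 8 of the 10 genes fell, and 18.1% of the 14934 genes tested were called lower by edgeR. These comparisons at each training state share no library. Kera (-3.96 ± 0.46), Fmod (-3.19 ± 0.44), Chad (-3.01 ± 0.41) and Cilp2 (-2.81 ± 0.41) again fell most, followed by Mkx (-2.14 ± 0.43), Comp (-2.11 ± 0.49), Thbs4 (-1.60 ± 0.30) and Tnmd (-1.20 ± 0.34). Their adjusted p ran from 2.56e-06 for Kera to 0.0114 for Tnmd. In each of these 8 genes the highest of 4 aged libraries lay under the lowest of 4 young ones, and 14.7% of all genes tested did so in this direction.

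Fmod was at 13.4, 37.4, 37.9 and 22.9 CPM in aged PoWeR replicates 10, 12, 14 and 15 and at 160, 225, 238 and 397 CPM in young PoWeR replicates 1 to 4. Comp was at 7.47, 9.96, 9.57 and 5.75 CPM in the aged and at 12.6, 34.8, 38 and 56.2 CPM in the young libraries. The aged values were close together, and the young ones spread over a range in which replicate 1 was lowest. Cilp was at 59.2, 57.0, 36.2 and 69.4 CPM in aged and at 35.3, 71.8, 84.8 and 70.3 CPM in young libraries, and these groups overlapped (-0.24 ± 0.32, adjusted p = 0.58).

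Scx departed from the sedentary comparison. After PoWeR it was at 14.4, 11.5, 15.1 and 11.8 CPM in aged soleus and at 18.7, 7.25, 10.8 and 8.72 CPM in young soleus. The aged values lay inside the young range, and the log2 fold change was 0.22 ± 0.23 (adjusted p = 0.472). Bop1 was called higher in aged muscle in this comparison, by 0.52 ± 0.12 (adjusted p = 0.00211). The difference between the age effects of trained and sedentary mice was tested as an interaction. For Scx it was 0.94 ± 0.32 (unadjusted p = 0.00833, adjusted p = 0.25), so that the change of the age effect with training did not pass the threshold. No member passed edgeR's test of this interaction, at 0% of all genes. The count at an unadjusted p under 0.05 was 1 of 10, beside 13.4% of all genes. DESeq2 and limma also called 0 of the 10. The second smallest p belonged to Comp, at -0.67 ± 0.66 (adjusted p = 0.681).

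Some values moved with age beside the 10 genes. Over all genes tested, edgeR called 16.7% lower and 19.5% higher with age in sedentary soleus, and 18.1% and 19.7% after PoWeR. Counts of the lists below stand beside these shares, and several lie near them. The share of counts from mitochondrially encoded genes was 13.1 to 14.5% in aged and 21.3 to 23.1% in young sedentary soleus, and 10.6 to 13.4% and 10.7 to 18.5% after PoWeR. Of 8 muscle fibre genes, 4 rose with age at each training state, among them the heavy chains Myh2 (1.01 ± 0.20 in sedentary soleus) and Myh1 (1.85 ± 0.51). The mean of Myh4, used above to tell the muscles apart, was higher in aged sedentary soleus than its level in any young soleus library. The SD of Myh4 in that aged group was larger than the mean. The summed level of 10 fibro-adipogenic progenitor markers, genes of the main stromal cell of muscle, was 351 to 953 CPM in aged and 639 to 1011 CPM in young sedentary soleus. Of these 10 markers 1 fell in sedentary soleus (Cd34, -0.68 ± 0.25) and 5 fell after PoWeR, led by Pdgfra (-1.56 ± 0.30). Of 9 Schwann cell genes tested in sedentary soleus 3 fell, among them Prx (-1.67 ± 0.28) and Ncmap (-1.16 ± 0.44), and Gldn rose. Of 10 endothelial genes 2 fell, Tie1 (-0.89 ± 0.19) and Flt1 (-0.79 ± 0.19). By edgeR 0 of 10 adipocyte, 0 of 7 macrophage and 0 of 5 red cell genes passed there. After PoWeR 1 adipocyte gene rose with age, Fabp4 (0.95 ± 0.17), and of the macrophage genes Cd68 rose (1.93 ± 0.39) and Adgre1 fell (-1.33 ± 0.37). There Egfl7 (1.17 ± 0.24) and Emcn (0.80 ± 0.22) of the endothelial genes rose, while Flt1 (-0.61 ± 0.21) and Tie1 (-0.59 ± 0.20) fell. Of the Schwann cell genes Prx fell (-0.88 ± 0.29) and Gldn rose (1.88 ± 0.38), and the neutrophil gene S100a8 rose (1.92 ± 0.63). The summed level of 5 bone genes, which could mark attached bone, was 0 to 0.490 CPM in young and 0.0565 to 2.89 CPM in aged sedentary soleus. After PoWeR it was 0.0623 to 9.14 CPM in young and 0.160 to 1.56 CPM in aged soleus, with Ibsp at up to 8.98 CPM in a young library. The part of these values in the results was not tested.

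Other genes of the same tissues were read from lists, each as a count beside the 10 and beside the same shares over all genes. Of 16 other tendon matrix genes, 5 fell with age in sedentary soleus (median log2 fold change -0.58) and 13 fell after PoWeR (median -1.29), and 0 rose in either. In sedentary soleus those were Angptl7 (-2.47 ± 0.52), the type I collagen chains Col1a1 (-1.99 ± 0.45) and Col1a2 (-1.86 ± 0.41), Col12a1 (-1.46 ± 0.40) and Prelp (-1.21 ± 0.27). Decorin (Dcn), biglycan (Bgn) and lumican (Lum), leucine-rich relatives of Fmod and Kera, had sedentary values of -0.30 ± 0.23, -0.47 ± 0.25 and -0.61 ± 0.29, none of them called. After PoWeR, Lum (-1.11 ± 0.30) and Dcn (-0.66 ± 0.25) fell, and Bgn had -0.67 ± 0.26 (adjusted p = 0.0546).

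Cartilage genes proper were mostly too low to test: of 14 listed, 12 were in the table and 6 were tested. Col11a1 (-2.60 ± 0.53) and Col11a2 (-2.05 ± 0.31), the type XI collagen chains that also occur in tendon, fell in sedentary soleus and again after PoWeR. Sox9, the master regulator of cartilage cells, rose in sedentary soleus (0.86 ± 0.25) and had 0.61 ± 0.26 after PoWeR (adjusted p = 0.0713). Cytl1 rose after PoWeR (0.91 ± 0.33). Col2a1, the main cartilage collagen, had -1.19 ± 0.88 in sedentary soleus and fell after PoWeR (-3.61 ± 0.96). It was at 0.0533 to 0.226 CPM in aged and 0.149 to 6.88 CPM (median 0.712) in young PoWeR libraries, so the groups overlapped. Of 15 fibrillar and microfibril matrix genes, 3 fell in sedentary soleus, led by Mfap4 (-1.23 ± 0.35), and 5 fell after PoWeR, led by Fbln1 (-1.80 ± 0.29), with 0 rises.

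Transforming growth factor beta drives tendon matrix production, and of 15 genes of its pathway 5 fell and 2 rose with age in sedentary soleus. The ligand gene Tgfb3 fell (-1.28 ± 0.08), as did Smad4 (-0.65 ± 0.08), the shared signal transducer. Ltbp3, which binds the latent ligand, rose (0.52 ± 0.09). After PoWeR 5 fell and 3 rose, with Tgfb3 at -0.96 ± 0.08. Of 5 genes of myotendinous junction nuclei, 1 fell in sedentary soleus, the junction collagen Col22a1 (-0.79 ± 0.18), and after PoWeR 2 fell and 1 rose.

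**Figure D3:**
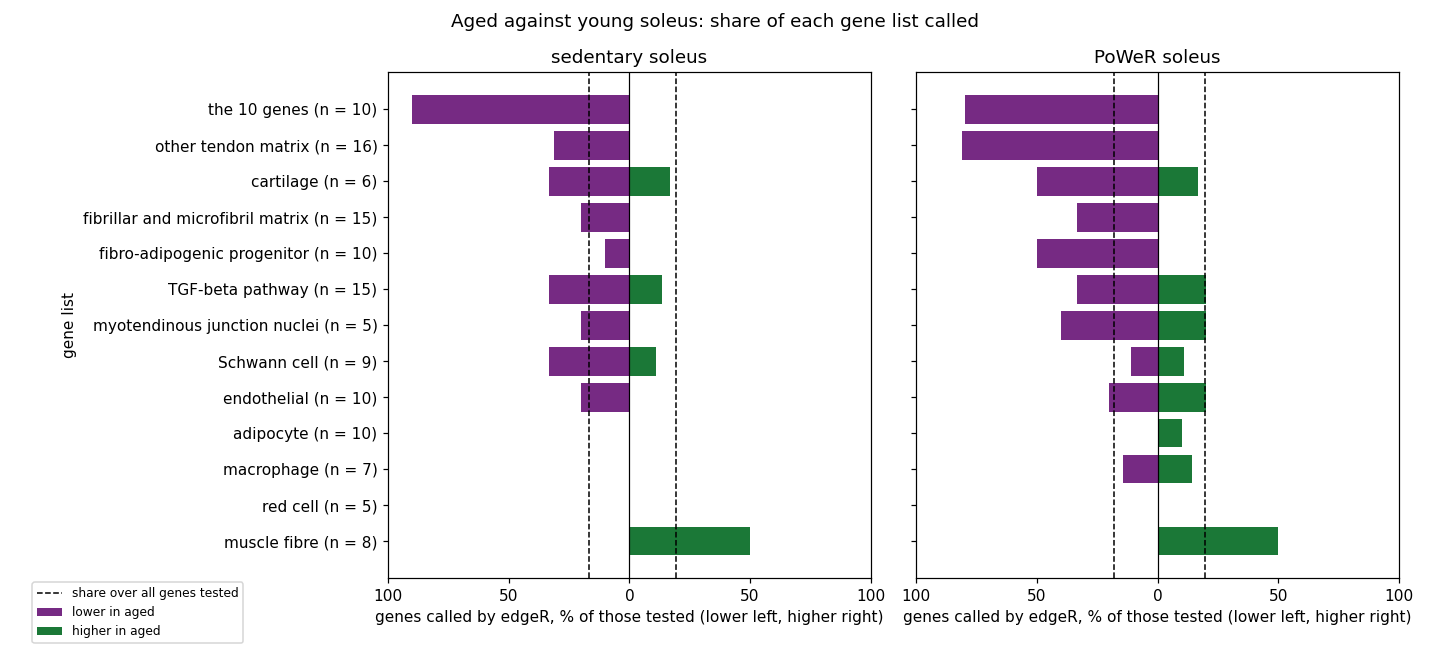
Share of tested genes of each list that edgeR called lower (purple, to the left) or higher (green, to the right) in aged soleus, for sedentary and PoWeR mice; dashed lines give the shares over all 14934 genes tested. The 10 genes stand at 9 of 10 lower in sedentary and 8 of 10 lower in PoWeR soleus, beside 16.7% and 18.1% of all genes.

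PoWeR was compared with sedentary mice within each of 4 pairs of groups, and few of the 10 genes passed. In aged soleus 0 of 10 were called by edgeR (0.857% of genes), 0 had an unadjusted p under 0.05 (12.8% of genes), and DESeq2 and limma called 0. The smallest p values belonged to Kera (1.15 ± 0.58, adjusted p = 0.422) and Cilp2 (0.87 ± 0.45, adjusted p = 0.439). Kera was at 0.792, 0.852, 0.390 and 0.0558 CPM after PoWeR, where 3 libraries lay above and 1 below the sedentary range of 0.0611 to 0.333 CPM. The 10 log2 fold changes ran from -0.01 for Fmod to 1.15 for Kera, 9 of them above 0, beside 49.4% of all genes. For Fmod the 95% interval was -0.79 to 0.76, and for Comp -0.87 to 0.97, so changes of that size were not detectable here.

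Aged plantaris gave wider intervals. edgeR called 0 of the 10 (0.0262% of 15280 genes), 0 had an unadjusted p under 0.05 (9.86% of genes), and DESeq2 and limma called 0. The smallest p values were those of Scx (-0.35 ± 0.25, adjusted p = 0.669) and Mkx (0.54 ± 0.48, adjusted p = 0.741). Standard errors reached 0.80 for Comp, beside 0.47 in aged soleus. One sedentary library, replicate 16, held 0 reads of Comp and of Kera, where 3 counts correspond to 0.188 CPM. Its Tnmd was at 0.125 CPM, beside 0.883 to 5.01 CPM in the other 4, its Fmod at 3.95 beside 18.1 to 54.3 CPM, and its Thbs4 at 3.82 beside 33.6 to 41.2 CPM. Cilp (68.6 CPM) and Scx (7.71 CPM) of that library lay inside the range of the others. Without replicate 16 edgeR called 0 of the 10, Scx had -0.40 ± 0.26 (adjusted p = 0.748) and Mkx 0.34 ± 0.48 (adjusted p = 0.919). PoWeR replicate 12 lay apart in lists other than the 10: its 10 progenitor markers summed to 1818 CPM beside 661 to 793 CPM in the other 3 PoWeR libraries, and its Schwann cell genes to 278 beside 46.3 to 57.2 CPM. Without both libraries edgeR called 0 of the 10.

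In young soleus Scx fell and the other 9 did not pass. Scx was at 20.8, 21.6, 23.4 and 15.9 CPM in sedentary and at 18.7, 7.25, 10.8 and 8.72 CPM in PoWeR replicates. PoWeR replicate 1 lay above sedentary replicate 4, so the groups overlapped, and the other 3 PoWeR libraries lay below all sedentary ones. The log2 fold change was -0.82 ± 0.23 (adjusted p = 0.0269), and 6.89% of 14934 genes were called lower. Bop1 had a log2 fold change of -0.18 ± 0.12 (adjusted p = 0.335). The mitochondrially encoded share of counts was 21.3 to 23.1% in the sedentary and 10.7 to 18.5% in the PoWeR libraries, and its part in the Scx result was not tested.

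The call of Scx was lost without any of 5 libraries: sedentary replicate 2 (adjusted p = 0.0785), sedentary replicate 3 (0.0675), PoWeR replicate 2 (0.0835), PoWeR replicate 3 (0.0864) or PoWeR replicate 4 (0.0553). It was also lost with only the 2 groups in the fit (adjusted p = 0.0766) and with a term for a low rRNA repeat share, which marks PoWeR replicate 3 here (adjusted p = 0.0856). The log2 fold change stayed between -0.65 and -0.82 in these 7 fits. The other 9 members lay between 0.07 for Tnmd and 0.94 ± 0.37 for Kera, which had the next smallest p (adjusted p = 0.101). Kera was at 4.53, 2.89, 5.49 and 4.52 CPM in sedentary and at 4.11, 6.78, 8.91 and 13 CPM in PoWeR libraries, with replicate 1 inside the sedentary range. Without that library Kera was called (1.15, adjusted p = 0.0338). Among the 16 other tendon matrix genes 1 rose, Tgfbi (0.77 ± 0.25), beside 5.97% of all genes.

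In the libraries labelled young plantaris edgeR called 0 of the 10 (0.223% of 15280 genes), and DESeq2 called 0. An unadjusted p under 0.05 was reached by 1 of the 10, beside 12.3% of all genes. That gene was Scx, at 21.8, 22.1, 14.2 and 24.1 CPM in sedentary and 8.87, 9.99, 18.2 and 13.6 CPM in PoWeR libraries. PoWeR replicate 3 exceeded sedentary replicate 3, and the other 3 PoWeR libraries lay below every sedentary one. The share of counts from the rRNA repeat gene split the same libraries: it was 0.242 to 0.578% in sedentary replicate 3 and PoWeR replicates 1, 2 and 4, where Scx was at 8.87 to 14.2 CPM, and 2.73 to 3.71% in the other 4, where Scx was at 18.2 to 24.1 CPM. The log2 fold change was -0.71 ± 0.25 (adjusted p = 0.25) and, with limma's quality weights, -0.95 (adjusted p = 0.00556). With a term for a low rRNA repeat share it was -0.37 ± 0.23 (adjusted p = 0.712), without sedentary replicate 3 -0.85 ± 0.25 (adjusted p = 0.0889) and without PoWeR replicate 3 -0.93 ± 0.25 (adjusted p = 0.0768). Cilp had the next smallest p (0.51 ± 0.36, adjusted p = 0.615). Low rRNA repeat shares lay mostly in PoWeR libraries here, so the share and training cannot be cleanly told apart. The part of the share in the Scx result was not tested. In young soleus PoWeR, replicate 3 alone had a low share, with Scx at 10.8 CPM. Of the others, Scx was lower in replicates 2 and 4 (7.25 and 8.72 CPM) and higher in replicate 1 (18.7 CPM).

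**Figure D4:**
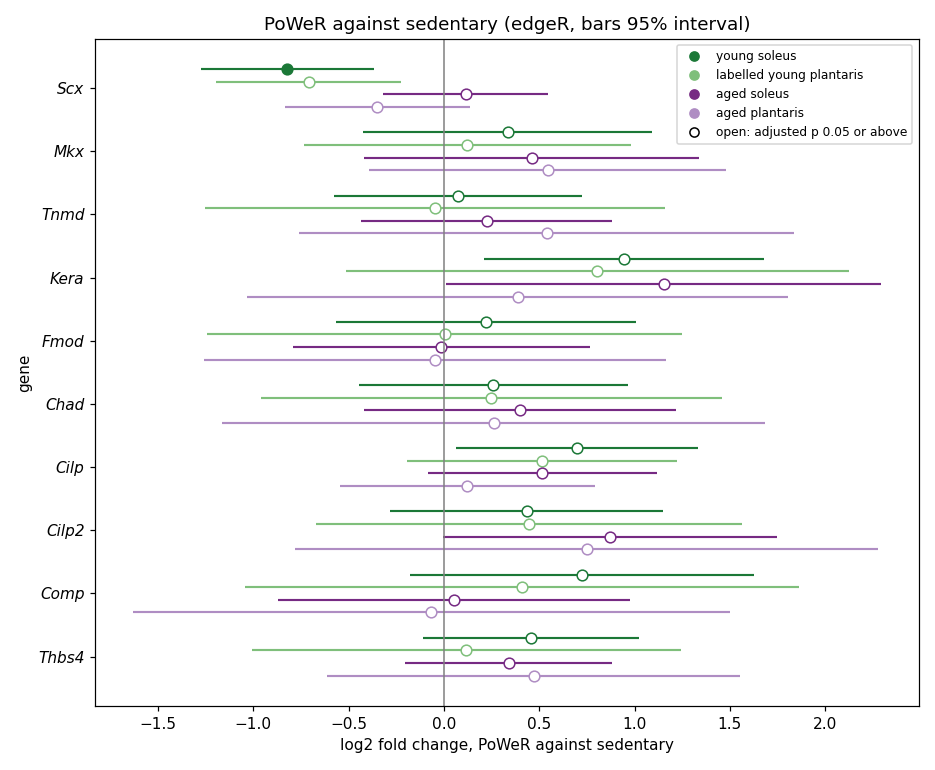
Log2 fold change of each gene in PoWeR against sedentary mice, with 95% intervals, in young soleus, the libraries labelled young plantaris, aged soleus and aged plantaris; the filled point passed an adjusted p of 0.05. Scx in young soleus (-0.82) is that point, and the intervals of Fmod span 0 in each of the 4 comparisons.

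The muscles were compared within the aged mice, where the labels and myosins set them apart. In sedentary mice, with replicate numbers left out of the fit, Kera was the only one of the 10 that edgeR called. It was lower in soleus, and 15.8% of 14823 genes were called lower. Kera was at 0.332, 0.0611, 0.333, 0.180 and 0.226 CPM in soleus and at 2.86, 0.235, 1.62, 1.94 and 0 CPM in plantaris replicates 12 to 16. Of the plantaris libraries, 3 lay well above every soleus library and the other 2 inside or below the soleus range. The log2 fold change was -2.48 ± 0.85 (adjusted p = 0.0302), and 4 of 10 fits without one library kept the call. The libraries without which it was lost were soleus replicates 13, 15 and 16 and plantaris replicates 12, 14 and 15, with adjusted p from 0.0534 to 0.0915. Without plantaris replicate 16, the library with 0 Kera reads, the value was -2.80 (adjusted p = 0.00505), and Kera was still the only one of the 10 called.

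Cilp was next by p in that comparison, at 38.4 ± 15.1 CPM in soleus and 69.9 ± 23.1 CPM in plantaris (-0.85 ± 0.32, adjusted p = 0.0545). Without plantaris replicate 16 it was -0.85 ± 0.35 (adjusted p = 0.086). The labels give soleus and plantaris libraries of aged mice the same numbers and do not say whether a number marks a mouse. Of the sedentary ones, 8 of 10 correlated best with their own number in the other muscle. With the number as a replicate block edgeR called 4 of the 10 in sedentary mice: Cilp (-0.89 ± 0.18, adjusted p = 0.00283), Kera (-2.15 ± 0.76, adjusted p = 0.039), Scx (0.43 ± 0.13, adjusted p = 0.0168) and Tnmd (1.41 ± 0.48, adjusted p = 0.0423). Without the block 32.9% of all genes were called in this comparison, 17% higher and 15.8% lower in soleus. The share with the block is not given here, so the count describes these genes only.

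After PoWeR Scx was the only one of the 10 called, higher in soleus, and 12.2% of the genes were called higher. It was at 14.4, 11.5, 15.1 and 11.8 CPM in soleus and at 9.94, 5.52, 8.30 and 4.74 CPM in plantaris replicates 10, 12, 14 and 15. The groups did not overlap, and the log2 fold change was 0.90 ± 0.22 (adjusted p = 0.0058). Bop1 had a log2 fold change of 0.36 ± 0.14 there (adjusted p = 0.0682). Kera was next by p (-1.72 ± 0.86, adjusted p = 0.167).

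Whether training acted differently on the muscles was tested as an interaction in the aged mice. edgeR called 0 of the 10 (0% of genes), 0 had an unadjusted p under 0.05, and DESeq2 and limma called 0. The smallest p values were those of Scx (0.46 ± 0.30, adjusted p = 0.558) and Cilp (0.39 ± 0.48, adjusted p = 0.783). Without aged plantaris sedentary replicate 16 the count was 0, with Scx at 0.51 ± 0.31 (adjusted p = 0.591) and Cilp at 0.40 ± 0.51 (adjusted p = 0.831). Young soleus and the sedentary libraries labelled young plantaris were compared too. There 0 of the 10 were called by edgeR, DESeq2 or limma, while edgeR called 3.26% of 15132 genes. An unadjusted p under 0.05 was reached by 0 of the 10, beside 20.4% of all genes. Mkx (0.32 ± 0.40, adjusted p = 0.714) and Cilp2 (-0.44 ± 0.56, adjusted p = 0.716) had the smallest p values.

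Taking all libraries by age alone, 3 of the 10 genes separated the 18 aged from the 16 young libraries without overlap, each lower in aged ones, beside 2.26% of 15796 genes. Fmod was at 3.95 to 54.3 CPM (median 34.6) in aged and 107 to 448 CPM (median 225) in young libraries. Chad was at 0.251 to 5.18 CPM (median 2.97) in aged and 8.23 to 54.1 CPM (median 25.8) in young libraries. Cilp2 was at 0.125 to 2.34 CPM (median 0.926) in aged and 5.60 to 29.7 CPM (median 13.7) in young libraries. These ranges pool muscles and training states and describe the libraries, since the libraries labelled young plantaris have no plantaris-like counterpart in age. Within soleus 7 of the 10 lay lower in each of the 9 aged than in each of the 8 young libraries, beside 6.24% of 14934 genes, and Comp missed because 1 aged library, at 12.9 CPM, lay above 2 young ones, at 12.6 and 12.8 CPM.

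Replicates of a group spread widely in these genes, and most members spread together. In the sedentary libraries labelled young plantaris, replicate 4 was highest for 10 of 10 members, with Fmod at 448 CPM beside 123 to 213 CPM in the other 3. Young sedentary soleus replicate 3 was highest for 8 of 10, and young PoWeR soleus replicate 1 was lowest for 9 of 10, with Scx the exception, where it was highest. Aged sedentary soleus replicate 13 was lowest for 9 of 10, again with Scx the exception and highest. The summed level of the 10 genes ranged from 313 to 660 CPM within young sedentary soleus, and from 81.5 to 190 CPM within aged sedentary soleus.

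This likeness was described by the Pearson correlation of log2 CPM deviations from the group mean, over libraries. The libraries share group means, total depth and the dissection of a muscle, and a correlation here is a description. Over all 34 libraries the median r with the other 9 members was 0.85 for Tnmd, 0.84 for Fmod and Chad, 0.82 for Thbs4, 0.78 for Comp, 0.75 for Cilp2, 0.69 for Kera and 0.63 for Mkx. Comp and Thbs4, the thrombospondin pair, had the highest r, 0.94. These r include aged plantaris sedentary replicate 16, where the mean log2 deviation of the members other than Scx and Cilp was -2.55. Scx stood apart, with r from -0.41 with Mkx to -0.11 with Kera, below 0 with each of the other 9.

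Cilp was alike to the others over the pooled young libraries and not over the pooled aged ones, and the aged groups differed among themselves. Over the 16 young libraries its median r with the 8 members other than Scx was 0.89, and over the 18 aged ones 0.06. Spearman's rho gave 0.83 and 0.07, and without the 2 libraries at each age that lay farthest from the median the r were 0.82 and -0.10. Tnmd, read in the same way with the other 7 of those members, had 0.91 in young and 0.85 in aged libraries, and 0.90 and 0.71 without those 2. Scx had -0.37 in young and -0.09 in aged libraries, and its r with Bop1 was 0.11 and 0.30. Within aged sedentary soleus Cilp and the mean of the other 8 deviated together: the log2 deviations from the group mean were -0.95 and -0.96 in replicate 13 and 0.73 and 0.46 in replicate 14. In aged plantaris PoWeR they were opposite in replicate 10 (0.66 and -0.82) and in replicate 14 (-0.82 and 0.58). These groups hold 4 or 5 libraries, too few for a correlation of their own. In aged sedentary plantaris the lowest Fmod library had Cilp at 68.6 CPM, inside the range of the other 4 (49.6 to 106 CPM). No test of a difference between the ages in these correlations was run.

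**Figure D5:**
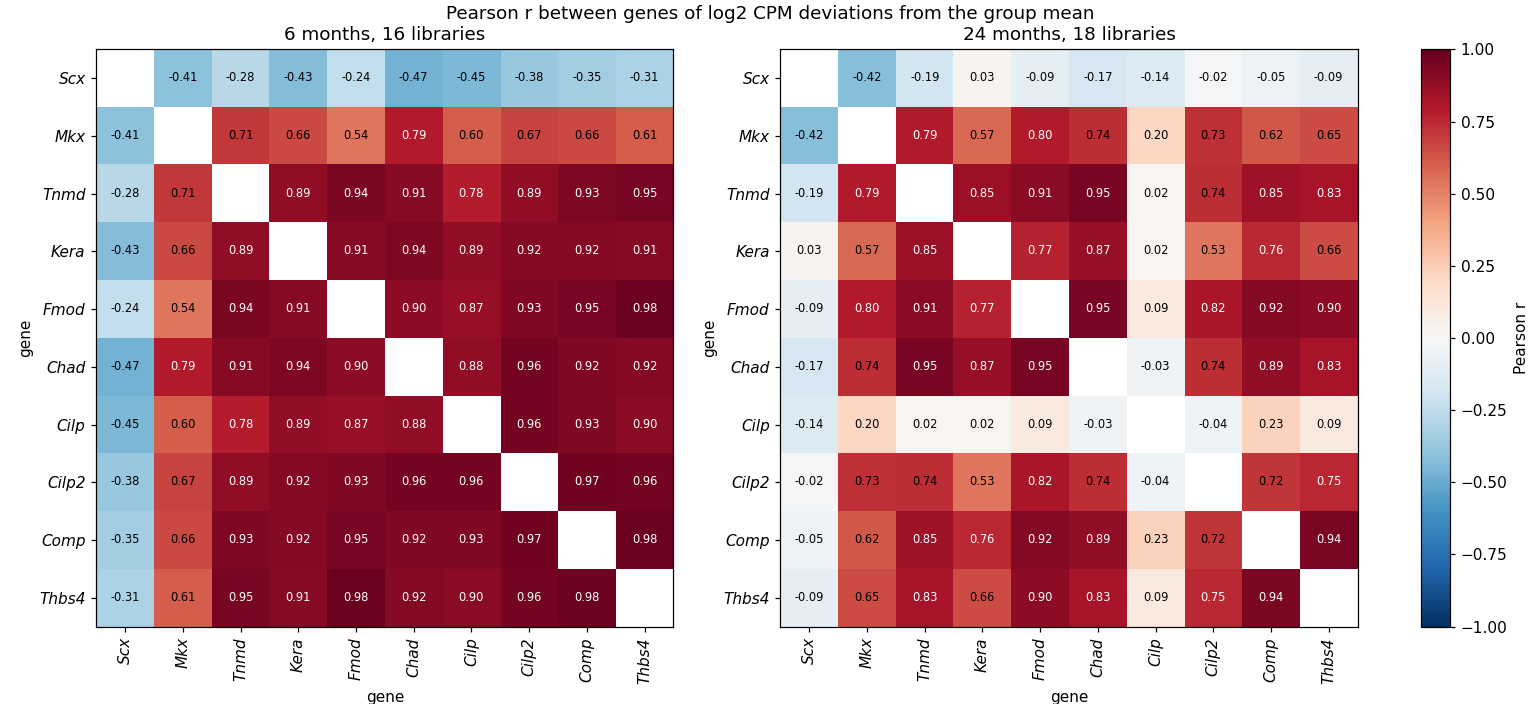
Pearson r between each pair of the 10 genes, from log2 CPM deviations from the group mean, over 16 young libraries (left) and 18 aged libraries (right); red is positive and blue negative. The row of Cilp is red over the pooled young libraries and near 0 over the pooled aged ones, and the row of Scx is below 0 in young libraries.

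The genes outside the 10 that were most alike to them over the 34 libraries, by mean r with the 10, were Prelp (0.68), Itgbl1 (0.68), Col12a1 (0.65), Chodl (0.64) and Col8a2 (0.64), among 15796 genes with a median of 0.01. Prelp is a leucine-rich matrix protein, and Col12a1 and Col8a2 are collagen genes.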

How the data were processed

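The labels describe RNA of mouse soleus and plantaris, sequenced in 34 libraries. The deposited table holds expected counts per gene, the authors' estimated read counts, not normalized; 26.7% of them are not whole numbers, the smallest summed count of a gene is 10, and they were rounded before fitting. Per the submitters' processing notes, STAR 2.7.3a, Partek and DESeq2 were used with mm10, with no order or role given; strand use is not given in the sources used here. All 34 columns of counts were used.

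edgeR 4.0.16 in R 4.3.3 (TMM factors, filterByExpr by group with minimum count 10, robust quasi-likelihood F test, Benjamini-Hochberg over all genes tested, threshold 0.05) was fitted to the 17 soleus, 17 plantaris-labelled, 18 aged or 16 young libraries, with a mean per group. CPM use TMM factors over all 34 libraries; deviations for correlations use log2 CPM with a prior count of 2. Intervals of 95% come from the standard errors. Total counts per library ran from 15237626 to 26250461, and replicates differed by more than counting error (smallest chi-square per degree of freedom 5.15), so replicate spread limits the precision. Whether each library is its own animal is not stated, and p-values then reflect only variation between these libraries, which may be technical. The young labels carry number codes, some alike between soleus and the libraries labelled plantaris. They do not say whether libraries pool or share mice, and the fits treat the libraries as separate. Replicate numbers of the aged labels were not taken as pairs in the main fits. Same-numbered soleus and plantaris libraries correlated at 0.056 to 0.173, with 7 of 9 over 0.1, and same-numbered sedentary and PoWeR libraries at -0.18 to 0.099. Of the aged libraries, 8 of 10 sedentary and 8 of 8 PoWeR correlated best with their own number in the other muscle. If the numbers mark mice, the main comparisons of the muscles leave out a pairing. Young replicates were numbered in accession order.

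All 10 members are named in each comparison that calls them, with the 2 smallest p where fewer than 2 were called; other lists give up to 3 called genes with the largest change, else the smallest p. Decorin, biglycan, lumican, Col2a1, the additional tendon genes of sedentary soleus and the flanking genes were added outside that rule. The members, lists and alternatives were chosen with earlier results of these data known. Alternatives were DESeq2 1.42.0, limma 3.58.1 with quality weights, RLE factors, no filter, only the groups compared, a replicate block, a term for a low rRNA repeat share (under 0.7% of counts), omission of 2 aged plantaris libraries and each library left out. Some genes of these lists are not reported here by name. Fits were tested on simulated data. Exon lengths and positions come from GENCODE for GRCm38, promoters from RefSeq. Python 3.11.15, pandas and matplotlib made tables and figures.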

Additional observations from a re-analysis of the deposited data

Results flagged for a closer look

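Each of the 80 sets of values (10 genes in 8 groups) was searched for a library with a gap to its nearest neighbour that is large for the range of its group. For normally spread values chance flags about 1 in 20 such sets, which would be 4 here. The genes are correlated and the CPM were not checked for a normal spread, so that number is a rough guide. The search flagged 4 sets, and their causes were not tested. Kera was at 4.04 CPM in aged plantaris PoWeR replicate 14, beside 0.809 to 1.20 CPM in the other 3. Thbs4 was at 3.82 CPM in aged plantaris sedentary replicate 16, beside 33.6 to 41.2 CPM in the other 4; 8 of the 10 genes were lowest in that library. Tnmd was at 24.2 CPM in replicate 4 of the sedentary libraries labelled young plantaris, beside 6.99 to 9.64 CPM, and at 19.6 CPM in young soleus sedentary replicate 3, beside 12.1 to 13.2 CPM.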

How the results depend on the processing

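Across 93 fits, 692 of 745 alternative values kept their direction and side of the threshold. The counts for age in soleus were 9 and 8 in each fit by another tool, scaling or filter. In young soleus the count after PoWeR was 0 with only the 2 groups and 0 with the term for the rRNA repeat share, and ran from 0 (without sedentary replicate 2) to 2 (without PoWeR replicate 1, with Kera added) over fits without one library. In the libraries labelled young plantaris it was 1 with limma. Aged sedentary soleus against plantaris gave 2 with DESeq2, limma or RLE factors, 0 with only the 2 groups, where Kera was not tested, and 0 to 2 without one library. The replicate block gave 4 there (Cilp, Kera, Scx and Tnmd), although the numbers were not taken as pairs. In the fit without it 32.9% of all genes were called. Of the aged libraries, 8 of 10 sedentary and 8 of 8 PoWeR correlated best with their own number in the other muscle, a hint from the data. The block changed no other count. Cilp2 in young soleus against the labelled plantaris ranged from -0.69 to 0.22 without one library and turned sign without the labelled plantaris replicate 4. The cause was not tested. RLE factors moved the median of all genes by under 0.1.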
